A study of Mus musculus with 8 samples.

Results

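Hematopoietic stem cells (HSCs) with the highest level of Itga2b, the gene of the integrin CD41 on megakaryocytes and platelets, were compared with HSCs in which no Itga2b transcript was counted. Within each genotype label, the 25% of cells with the highest deposited Itga2b value were taken as Itga2b-high, with ties broken by column order. This gave 76 of 304 cells labelled WT and 70 of 282 labelled KO, 146 of 586 cells in all. Itga2b was at 0 in 106 cells labelled WT and 47 labelled KO, and 122 and 165 cells lay between.

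The cells came from bone marrow of adult C57BL/6 mice that carried loxP-flanked alleles (Med23 L/L) of a gene of the Mediator complex, Med23. Those labelled KO also carried Mx1-cre, an interferon-driven transgene induced with poly(I:C), and those labelled WT came from Mx1-cre-negative mice. Mx1-cre acts in blood cells at large and in other tissues as well, so the deletion is not limited to HSCs, and poly(I:C) itself gives an interferon response. The sort gate took cells without lineage markers that carried Sca1, c-Kit and CD150 but neither CD34 nor CD48, and they were picked by hand. There were 4 libraries of each genotype, but the columns name only the genotype, so each label is 1 pool, no difference has a replicate check, and no p-value is given.

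As background, megakaryocytes are the bone marrow cells that shed platelets, and they arise from HSCs through progenitors that begin to make platelet proteins. Part of the HSC compartment already carries CD41, which pairs with integrin beta 3 to form the platelet fibrinogen receptor, and such HSCs have been described as biased towards megakaryocytes and platelets. The transcription factors Gata1, Gata2, Fli1, Runx1, Gfi1b and Nfe2 drive megakaryocyte genes, and megakaryocytes replicate their DNA without dividing as they mature. HSCs at rest rarely divide and express genes of quiescence and self-renewal.

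The values that chose the cells are given as a description. In Itga2b-high cells labelled WT, 2 to 145 Itga2b molecules (unique molecular identifiers, UMIs) were counted per cell, with a median of 13. In those labelled KO the range was 4 to 134 and the median 18. The lowest deposited value inside this top 25% was 3.03 in WT and 4.216 in KO, and the highest outside it was 3.02 and 4.216, so cells next to the limit hardly differed. At the WT limit, 136 of 282 cells labelled KO (48.2%) would have been taken, where the rule takes 25%.

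**Figure D1:**
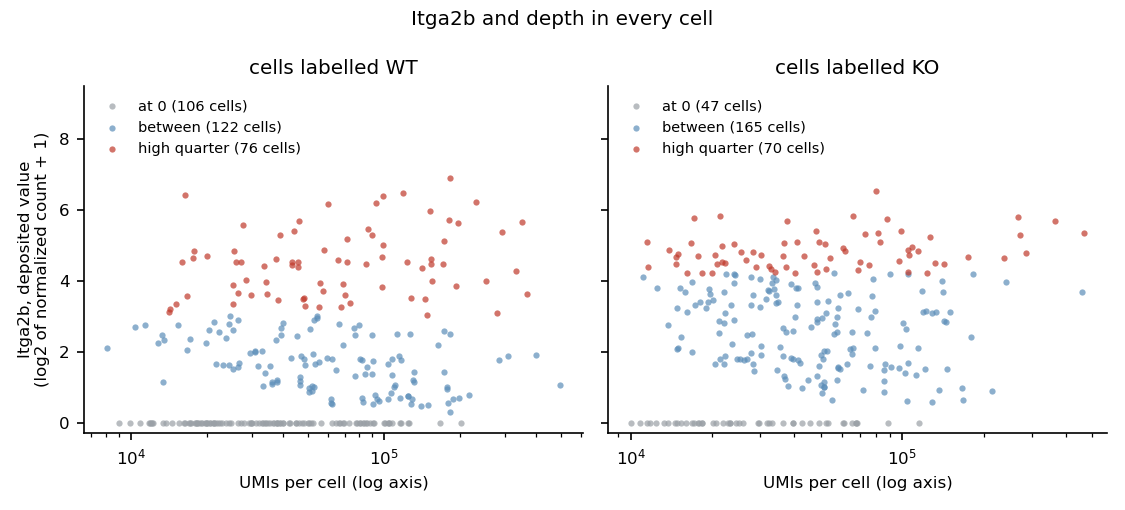
Deposited Itga2b value (log2 of normalized count plus 1) against UMIs per cell (log axis) in every cell, 1 point a cell, in 304 cells labelled WT and 282 labelled KO. Red cells form the upper 25%, blue cells lie between, and grey cells are at 0; the grey cells reach less far to the right, and the lowest red cells of KO lie above those of WT.

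Depth moved with the choice of cells. Itga2b-high cells had a median of 62861 UMIs in WT and 47784 in KO, against 34536 and 24436 in cells at 0, ratios of 1.82 and 1.96. A cell read at 0 with the median depth of the compared WT cells still allows a level of up to 67.0 CPM (UMIs per 1000000 UMIs), and in KO up to 76.1 CPM, so cells at 0 need not lack Itga2b. To allow for depth, cells with at least 2000 genes and 20000 UMIs were thinned at random to 20000 UMIs each, and UMIs were summed over cells. Deep cells in which oocyte genes exceeded 1000 CPM were left out, among the Itga2b-high cells 16 labelled WT and 1 labelled KO. This left 52 Itga2b-high cells and 63 cells at 0 in WT, and 57 and 29 in KO; the medians before thinning were still 1.59 and 1.53 times apart. All levels below are CPM of thinned UMIs. Intervals are exact 95% intervals that cover counting error only, a difference is called beyond counting error where the interval of the ratio leaves out 1 (0 on the log2 scale), and differences between the labels in these ratios were not tested.

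Med23, the targeted gene, was examined first. It had 10 thinned UMIs in Itga2b-high cells labelled WT, 6 in the cells between and 9 in cells at 0. In cells labelled KO it had 1, 26 and 12 UMIs. The log2 ratio of KO to WT was -3.45 (-8.89 to -0.64) in Itga2b-high cells and 1.53 (0.16 to 2.96) in cells at 0. The 12 UMIs of KO cells at 0 lay in 2 of 29 cells, and 1 of these held 83.3% of them, so no direction is read there. Since Med23 UMIs were this few and were present in KO, the cells are called "labelled KO" throughout.

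Of 5572 genes other than Itga2b with at least 0.5 thinned UMI per compared cell (25 CPM), 364 (6.53%) were 2-fold or more higher in Itga2b-high cells labelled WT than in cells at 0, and 560 (10.1%) were 2-fold or more lower. In cells labelled KO the numbers were 595 (10.7%) and 384 (6.89%). Both labels shared 101 higher genes (1.81%), which is 27.7% of those of WT and 17.0% of those of KO, and 72 lower genes (1.29%), 12.9% and 18.8%. In 18 genes (0.323%) the direction was higher in WT and lower in KO, and in 55 (0.987%) it was lower in WT and higher in KO. The median log2 ratio of all 5572 genes was -0.05 in WT and 0.06 in KO. Higher genes made up 39.4% of the 2-fold differences in WT and 60.8% in KO; without the top cell of each gene the KO share was 77.7%, and with the authors' normalized values the shares were 94.6% and 91.5%, since those values moved the median of all genes to 0.72 and 0.47. Centred on that median, they gave 40.0% and 57.7%.

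The label of these cells was checked against genes of the megakaryocyte lineage. A part of these genes, led by platelet glycoproteins and Pf4, was higher in Itga2b-high cells of both labels, but the lists as a whole were not. Of 73 listed genes in 4 groups, 60 besides Itga2b were in the table and 42 reached 25 CPM. Their median log2 ratio was 0.06 in WT and 0.15 in KO, close to the medians of all genes. The counting interval lay above 1 for 17 of 42 in WT and 12 in KO, where the shares over all genes were 22.3% and 21.8%, and below 1 for 12 and 8, where they were 26.1% and 17.9%. In both labels it lay above 1 for 7 of 42, where the share over all genes was 7.56% (Cd9, Gfi1b, Gp5, Gp9, Myh9, Pf4 and Rab27b) and below 1 for 4, where it was 6.62% (Esam, Gucy1a3, Lmo2 and Lyl1). The cells are therefore called Itga2b-high rather than megakaryocyte-primed.

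Differences among the platelet adhesion receptors went both ways. Gp5, the glycoprotein V subunit of the receptor for von Willebrand factor, stood at 90.4 CPM in Itga2b-high cells labelled WT, 17.5 in the cells between and 15.1 in cells at 0. In KO it stood at 36.0, 37.7 and 6.90 CPM. Its log2 ratio of Itga2b-high cells to cells at 0 was 2.58 (1.86 to 3.38) in WT and 2.38 (0.92 to 4.33) in KO, and the cells between were near the cells at 0 in WT and near the Itga2b-high cells in KO. Gp9, another subunit of that receptor, stood at 258, 57.1 and 109.5 CPM in WT and 359, 177 and 150 CPM in KO. The log2 ratios were 1.23 (0.93 to 1.54) and 1.26 (0.92 to 1.61), and a UMI was seen in 69.2% and 77.2% of Itga2b-high cells against 33.3% and 37.9% of cells at 0. Gp1bb, the beta chain of its glycoprotein Ib part, lay under the floor of 25 CPM but had 119 UMIs in Itga2b-high cells labelled WT and 4 in cells at 0, a log2 ratio of 5.17 (3.78 to 7.07). In KO it had 26 and 5 UMIs, and the interval of the ratio reached 1. Itgb3, the integrin partner of CD41, was sparse, with 11 and 2 UMIs in WT and 35 and 12 in KO. Cd9, a tetraspanin of the platelet surface, was higher in both labels by 0.75 and 0.92 on the log2 scale.

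Other receptors of the list went against this. Esam, an adhesion molecule of platelets, endothelium and HSCs, was lower in Itga2b-high cells, with a log2 ratio of -0.62 (-0.98 to -0.27) in WT and -0.92 (-1.75 to -0.09) in KO. Selp, the gene of P-selectin, differed in direction, with -1.09 (-2.09 to -0.16) in WT and 0.99 (0.06 to 2.05) in KO, but with the authors' normalized values the WT value was 0.88. Itga6, an integrin that binds laminin, was lower in WT at -1.34 (-2.29 to -0.47) and held 1 in its interval in KO at 0.14 (-0.50 to 0.80). The median of the 7 receptors over the floor was -0.62 in WT and 0.92 in KO.

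Among granule and secreted proteins, Pf4, the chemokine platelet factor 4 of alpha granules, was higher in both labels. It stood at 1320.2 CPM (1251 to 1392) in Itga2b-high cells labelled WT, 283 in the cells between and 194 (171 to 220.4) in cells at 0, 6.79-fold apart. In KO the levels were 704, 453 and 355 CPM, a 1.98-fold difference. The Pf4 UMIs were unevenly spread: in WT the 5 cells with most held 60.4% of the 1373 UMIs of 52 Itga2b-high cells and 7 cells had none, and in KO the 5 top cells held 38.8% of 802. By cell, Pf4 ranged from 0 to 234 thinned UMIs in WT with a median of 5.5, against 0 to 34 and a median of 1 in cells at 0, so the groups overlapped. In KO the ranges were 0 to 104 and 0 to 46 and the medians 8 and 3. Rab27b, a small GTPase of dense granules, was higher in both labels, by 2.06 (1.33 to 2.86) and 1.31 (0.19 to 2.62), although a single cell held all 8 UMIs of cells at 0 in KO, and among KO cells at or above the median depth the ratio was -0.29. Srgn, which encodes the granule proteoglycan serglycin and was seen in every Itga2b-high cell compared, stood at 1454 against 1451 CPM in WT and 2029.8 against 2143 in KO, log2 ratios of 0.00 and -0.08. Ppbp, the chemokine CXCL7, held 1 in WT at 0.01 (-2.04 to 1.99) and was higher in KO at 1.42 (0.31 to 2.72), under the floor. Vwf, von Willebrand factor, had 19 UMIs in Itga2b-high cells labelled WT and none in those labelled KO.

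Coexpression was counted per cell for 3 of the 7 megakaryocyte genes whose interval lay above 1 in both labels. These counts therefore do not stand for the lists as a whole. At least 1 thinned UMI of each of Pf4, Gp9 and Gp5 was found in 21 of 52 Itga2b-high cells labelled WT, in 3 of 77 cells between and in 3 of 63 cells at 0. In KO the numbers were 9 of 57, 13 of 146 and 1 of 29. Of 23 granule and receptor genes, a median of 8 was detected per Itga2b-high cell in WT and 7 in KO, against 5 and 6 in cells at 0. Other lists varied too. Respiratory chain medians were 48 against 43 in WT and 45 against 42 in KO. Those of the GM progenitor list were equal, at 6 in WT and 8 in KO, and lymphoid medians were 2.5 against 4 in WT.

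Of 13 transcription factors of the lineage over the floor, the interval lay above 1 for 6 and below 1 for 4 in WT, and for 2 and 3 in KO. Over all genes the shares were 22.3% and 26.1% in WT and 21.8% and 17.9% in KO, so the KO counts are near the background. Gata1, a zinc finger factor required for megakaryocytes and red cells, lay under the floor, with 68 UMIs in Itga2b-high cells labelled WT and 15 in cells at 0, a log2 ratio of 2.46 (1.64 to 3.37). In KO it had 31 UMIs and 1 UMI, with an interval of the log2 ratio from 1.39 to 9.33, and 5 cells held 83.9% of the KO UMIs. Gfi1b, a repressor required in both lineages, was higher in both labels, by 0.95 (0.43 to 1.49) and 1.31 (0.55 to 2.16), but in cells with few cell-cycle UMIs its WT ratio was -2.38, on 2 UMIs in Itga2b-high cells. Zfpm1, the cofactor Fog1 of Gata1, was 3.0-fold higher in WT, at 155 against 51.6 CPM, and its interval held 1 in KO at 0.45 (-0.12 to 1.05). Mef2c, Runx1, Fli1 and Gata2 were likewise higher beyond counting error in WT, by 1.16, 1.0, 0.87 and 0.84, while in KO their intervals held 1. Lmo2 and Lyl1, parts of the stem cell transcription complex, were lower in both labels, Lmo2 at -0.37 and -0.47 and Lyl1 at -0.77 and -0.29. Nfe2, which controls late platelet genes, was lower in WT at -0.45 (-0.70 to -0.21) and held 1 in KO at -0.20 (-0.46 to 0.05). Meis1 had opposite directions, -0.37 in WT and 0.31 in KO.

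Fermt3, the integrin activator kindlin 3, was higher in WT at 0.68 (0.38 to 0.97) and held 1 in KO at -0.16 (-0.54 to 0.23). Of 17 signalling and cytoskeleton genes over the floor, the counting interval lay above 1 in 6 and below 1 in 5 in WT, and in 3 and 3 in KO; over all genes 22.3% and 26.1% of intervals did so in WT and 21.8% and 17.9% in KO. Rap1b, a GTPase of integrin activation, was 3.06-fold higher in WT, with an interval that held 1 in KO, and Slc14a1, a urea transporter, 2.40-fold. Myh9, the non-muscle myosin of platelet formation, was higher in both labels by 0.53 and 0.51. Gucy1a3, a subunit of the nitric oxide receptor, was lower in both at -0.80 and -1.31. F2rl3, the thrombin receptor PAR4, was higher beyond counting error in KO at 1.64 (0.61 to 2.84) and held 1 in WT at -0.62 (-1.32 to 0.06). Rgs18, a regulator of G-protein signalling in platelets, held 1 in the interval of both labels, at 0.09 and 0.18.

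**Figure D2:**
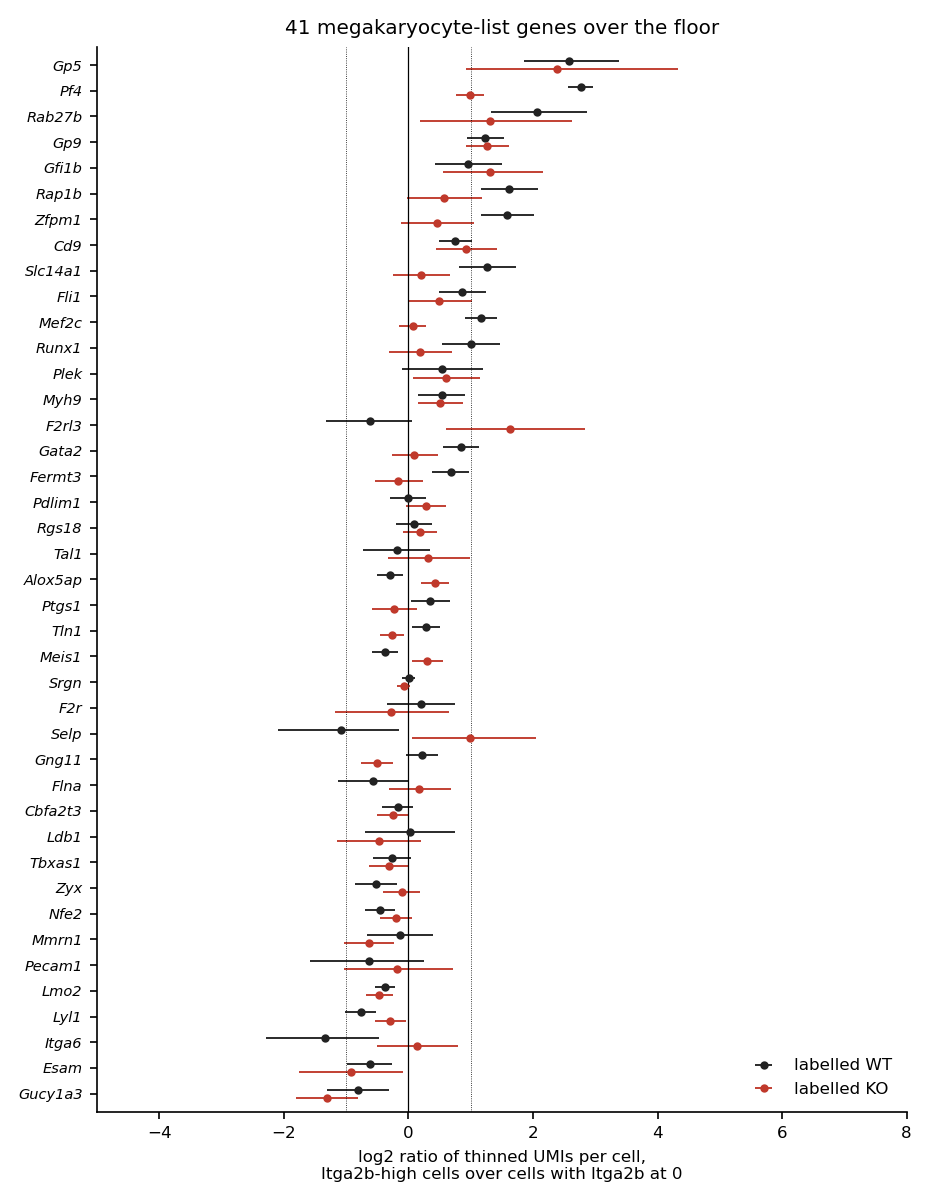
Log2 ratio of thinned UMIs per cell in Itga2b-high cells over cells with Itga2b at 0 (horizontal axis) for 41 of the 42 genes of the megakaryocyte lists with at least 25 CPM, labelled WT in black and KO in red, with exact 95% counting intervals as bars and dotted lines at 2-fold. Gp5, Pf4, Rab27b, Gp9 and Gfi1b stand to the right of 0 in both labels and Gucy1a3, Esam, Lyl1 and Lmo2 to the left, while most genes lie near 0 or differ between the labels.

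Promoter sequences of Itga2b and of 3 genes that were higher with it in both labels are printed to show the sites of lineage factors that such genes can hold. They are the 250 bases upstream of the start of each gene, 5′ to 3′ on the strand of the gene, from RefSeq on build GRCm38.p6. Capitals mark matches to a GATA motif (AGATAA or TGATAA) or an ETS motif (CGGAAG or AGGAAG) on either strand. Over 32851 promoters of this length, 16.6% held a GATA match and 39.2% an ETS match. The region of Itga2b is chr11:102469884-102470133 on the minus strand, that of Gp5 chr16:30310782-30311031 on the minus strand, that of Gp9 chr6:87777820-87778069 on the plus strand and that of Gfi1b chr2:28621983-28622232 on the minus strand.
Itga2b: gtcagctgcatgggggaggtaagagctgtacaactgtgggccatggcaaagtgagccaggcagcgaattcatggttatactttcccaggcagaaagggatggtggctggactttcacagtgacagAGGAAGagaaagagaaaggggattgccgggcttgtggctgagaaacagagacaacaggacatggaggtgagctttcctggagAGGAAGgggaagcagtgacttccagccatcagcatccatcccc
Gp5: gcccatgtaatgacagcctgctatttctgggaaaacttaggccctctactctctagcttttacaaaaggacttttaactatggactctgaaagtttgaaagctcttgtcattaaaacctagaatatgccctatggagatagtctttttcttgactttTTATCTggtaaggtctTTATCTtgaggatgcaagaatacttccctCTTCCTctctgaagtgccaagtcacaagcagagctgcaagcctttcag
Gp9: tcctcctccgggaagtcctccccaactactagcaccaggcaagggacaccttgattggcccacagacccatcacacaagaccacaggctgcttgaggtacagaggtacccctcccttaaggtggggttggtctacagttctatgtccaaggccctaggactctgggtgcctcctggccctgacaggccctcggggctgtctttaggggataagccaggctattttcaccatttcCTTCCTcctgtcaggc
Gfi1b: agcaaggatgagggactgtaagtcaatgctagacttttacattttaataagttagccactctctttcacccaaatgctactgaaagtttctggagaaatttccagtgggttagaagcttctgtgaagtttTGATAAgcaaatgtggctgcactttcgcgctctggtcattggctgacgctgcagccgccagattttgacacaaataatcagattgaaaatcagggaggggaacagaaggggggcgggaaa
Itga2b held 2 ETS matches, Gp5 held 2 GATA matches and 1 ETS match, Gp9 held 1 ETS match and Gfi1b held 1 GATA match. The promoters of Pf4, Gata1 and Gp1bb were also searched and are not printed. Each of them held 1 ETS match and no GATA match. A match is a run of letters, and binding was not measured in these cells.

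Of the lists compared, those of DNA replication and mitosis had the highest medians in Itga2b-high cells of both labels. All 22 S phase genes over the floor were higher in Itga2b-high cells of both labels, with medians of the log2 ratio of 1.48 in WT and 1.26 in KO. The counting interval lay above 1 for 20 and 18 of them and for 16 in both, where the shares over all genes were 22.3%, 21.8% and 7.56%. Pcna, the sliding clamp of DNA polymerase, stood at 363 against 114 CPM in WT and 343 against 139.7 in KO. Mcm3, part of the replicative helicase, stood at 245 against 69.0 and 111 against 43.1 CPM. Rrm2, the ribonucleotide reductase subunit of S phase, was higher by 1.63 (1.07 to 2.21) and 2.73 (1.54 to 4.22) on the log2 scale. Rfc2, a subunit of the clamp loader, was the closest to 0 by the mean of both labels, at 0.41 (0.18 to 0.65) and 0.26 (-0.01 to 0.54). Pcna and Mcm3 were picked from the list after their values were seen.

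All 12 G2M genes were higher in WT, with a median of 1.81, and the interval lay above 1 in each, against 22.3% of all genes. At or above the median depth the WT median was 3.63, and under it 0.72. In KO the median was 1.09, with 7 of 12 intervals above 1 and 3 below, where the shares over all genes were 21.8% and 17.9%. Mki67, a marker of cycling cells, stood at 222 CPM in Itga2b-high cells labelled WT against 19.0 in cells at 0, and at 91.2 against 41.4 in KO. Top2a, the topoisomerase that untangles replicated chromosomes, was 5.04-fold higher in WT and 3.26-fold in KO. Ube2c, Ccnb2 and Cenpa, genes of mitosis, were lower in KO, at -1.60, -0.88 and -1.18, and without the cell with most UMIs of each gene these ratios were 3.17, 4.43 and 1.09. The KO values therefore rest on a single cell among 29, and 1 KO cell at 0 had 446 cell-cycle UMIs where the median of its group was 22.

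Counted per cell, the 51 listed S and G2M genes had a median of 99 thinned UMIs in Itga2b-high cells labelled WT, with a range of 14 to 330, against 28 in the cells between and 24, with a range of 3 to 240, in cells at 0. In KO the medians were 31, 23 and 22. Of Itga2b-high cells labelled WT, 75% (61.1 to 86.0) lay above the median of all compared cells labelled WT, 34 UMIs, and of cells at 0 28.6% (17.9 to 41.3). In KO the shares above 27 UMIs were 54.4% (40.7 to 67.6) and 37.9% (20.7 to 57.7). These intervals count cells of 1 pool and do not cover differences between libraries.

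**Figure D3:**
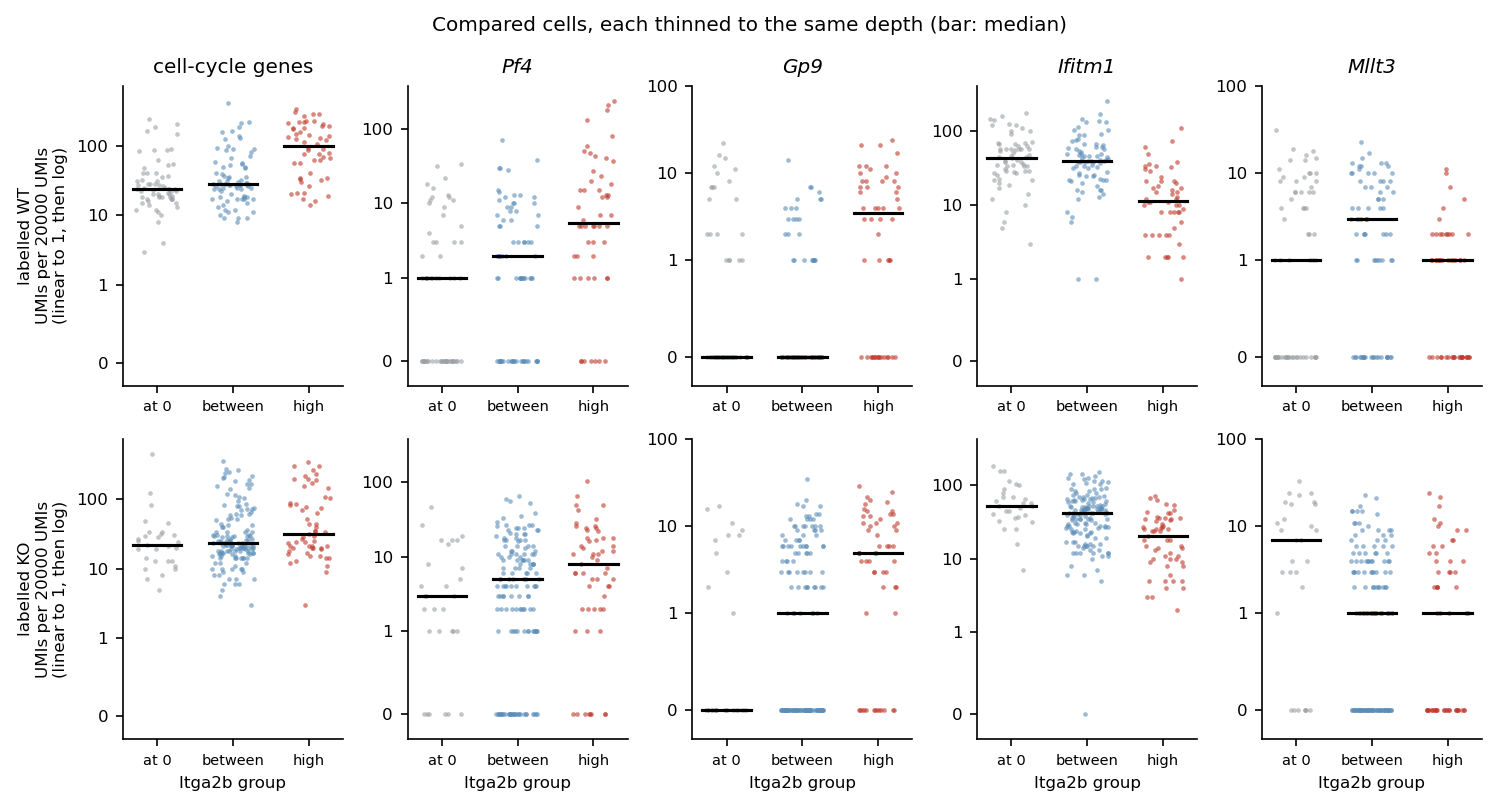
UMIs per cell after thinning to 20000 UMIs (vertical axis, linear to 1 and logarithmic above) for the listed cell-cycle genes, Pf4, Gp9, Ifitm1 and Mllt3, in compared cells with Itga2b at 0, between, and high, labelled WT above and KO below. Each point is a cell and the bar is the median; medians of the first 3 columns are highest and that of Ifitm1 lowest in Itga2b-high cells, Mllt3 medians are equal in WT cells at 0 and high, and all groups overlap.

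The genes with the largest difference in both labels were named by rule. The 10 highest were Timeless, H2-Ob, Cdk5rap2, Esco2, Gp5, Clspn, Asf1b, Pbk, Tk1 and Icam4. Timeless and Clspn, which guard replication forks, were 8.22-fold and 5.08-fold higher in WT and 10.2-fold and 9.29-fold in KO. Tk1, the thymidine kinase of S phase, stood at 233 against 51.6 CPM in WT and 128 against 6.90 in KO. Esco2, which acetylates cohesin, and Asf1b, a histone chaperone, had no UMI in KO cells at 0. With a floor of 3 UMIs over that group in place of 0, they were 8.14-fold and 7.80-fold higher in KO. These ratios are not lower bounds. Beside Gp5, 2 of the 10 have no listed role in the cell cycle: H2-Ob, a chain of the class II regulator HLA-DO, at 2.74 (1.18 to 4.73) and 2.67 (1.22 to 4.60), and Icam4, an erythroid adhesion molecule, at 2.09 (1.41 to 2.83) in WT. Icam4 had a single UMI in KO cells at 0, and at or above the median depth its KO log2 ratio was -0.46.

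The 10 lowest were Itpripl1, Osgin1, Dstyk, Adck2, Rin3, 1300002E11Rik, Gm10033, Fam168a, 2210408F21Rik and Shisa8. All were of low level, between 1.75 and 114 CPM in the compared groups. Osgin1, a gene of the oxidative stress response, stood at 8.65 against 54.0 CPM in WT and 5.26 against 20.7 in KO. Rin3, a guanine nucleotide exchange factor of endosomes, was lower at -1.77 (-3.21 to -0.55) and -1.71 (-2.51 to -0.95).

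Of the genes of stem cell maintenance and quiescence, more were lower than higher in Itga2b-high cells. Of 25 listed genes over the floor, the interval lay below 1 for 15 in WT and 10 in KO and above 1 for 4 in each, with medians of -0.46 and -0.25. Over all genes the shares below 1 were 26.1% and 17.9% and those above 1 were 22.3% and 21.8%, so the 4 above 1 are no more than that background. In both labels it lay below 1 for 8 genes, and Cdkn1b, Ifitm1, Mllt3 and Ndn were 2-fold or more lower in both. Mllt3, a regulator of HSC self-renewal, stood at 70.2 CPM in Itga2b-high cells, 218 in the cells between and 225 in cells at 0 in WT, and at 166, 151 and 453 in KO. Its log2 ratios were -1.68 (-2.07 to -1.30) and -1.45 (-1.73 to -1.18). Ifitm1, an interferon-inducible membrane protein, stood at 909.6, 2562 and 2684 CPM in WT and 1162, 2288 and 3224 in KO, log2 ratios of -1.56 (-1.67 to -1.46) and -1.47 (-1.57 to -1.37). Cdkn1b, the cell-cycle inhibitor p27, was lower at -1.37 (-2.14 to -0.66) and -1.67 (-2.43 to -0.93).

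Other HSC genes had a ratio farther from 1 in WT. Procr, the receptor EPCR of HSCs, stood at 27.9 CPM in Itga2b-high cells labelled WT and 198 in cells at 0, a log2 ratio of -2.83 (-3.44 to -2.27), and at 103 and 167 in KO, with -0.70 (-1.11 to -0.30). Hlf, a transcription factor of HSCs, stood at 62.5 against 325 CPM in WT, -2.38 on the log2 scale, and its interval held 1 in KO at -0.31 (-0.69 to 0.08). Hoxa9 and Txnip were lower in WT at -1.31 and -0.99, with intervals that held 1 in KO. Aldh1a1, a retinaldehyde dehydrogenase, was the list member higher in both labels, at 0.66 (0.28 to 1.05) and 1.27 (0.54 to 2.07). Cdkn1b, Ndn, Hlf, Hoxa9 and Txnip were picked from the list after their values were seen.

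The genes behind the sort gate differed within the sorted cells. Ly6a, which encodes Sca1, was lower in Itga2b-high cells, at 143 against 463 CPM in WT and 150 against 200 in KO, log2 ratios of -1.69 (-1.96 to -1.43) and -0.42 (-0.76 to -0.06). Kit held 1 in both intervals, at -0.27 and 0.25. Cd34 was lower in WT at -0.52 (-0.84 to -0.20) and held 1 in KO at 0.26 (-0.03 to 0.55). Slamf1, the gene of CD150, lay under the floor with 46 and 35 UMIs in WT and 8 and 5 in KO.

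Lymphoid and granulocyte-macrophage progenitor genes were more often lower than higher in Itga2b-high cells labelled WT. Of 6 lymphoid genes over the floor, the interval lay below 1 for 5 in WT, median -1.47, and for 2 in KO, median -0.16. It lay above 1 for 0 and 1. Over all genes 26.1% and 17.9% of intervals lay below 1 and 22.3% and 21.8% above. Ltb, the cytokine lymphotoxin beta, stood at 107 against 567 CPM in WT and 372 against 531 in KO. Gimap6, a lymphocyte GTPase, was lower at -1.65 (-1.90 to -1.40) and -0.80 (-1.11 to -0.49). Il2rg, the common gamma chain of cytokine receptors, was lower in WT at -1.28 (-1.68 to -0.90) and higher in KO at 0.63 (0.25 to 1.03). Of 14 granulocyte-macrophage (GM) progenitor genes, the interval lay below 1 for 10 in WT and 3 in KO and above 1 for 0 and 4, with medians of -0.49 and 0.17; the KO counts are near the shares over all genes, 17.9% below and 21.8% above. Irf8, a factor of monocytes and dendritic cells, stood at 8.65 against 59.5 CPM in WT and 43.0 against 48.3 in KO.

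Of 29 interferon-response genes, the interval lay below 1 for 14 in WT and 12 in KO, 8 of them in both, and above 1 for 6 and 2, where the shares over all genes were 26.1%, 17.9% and 6.62% below 1 and 22.3% and 21.8% above. The medians were -0.36 and -0.18. Zbp1, a sensor of nucleic acids, was lower at -1.72 (-2.96 to -0.64) and -0.81 (-1.52 to -0.10). Of 14 immediate early genes, which respond to handling and stimulation, the interval lay below 1 for 6 and 7, against 26.1% and 17.9% of all genes. Klf6 was at -3.22 (-4.26 to -2.33) in WT and -0.56 (-1.05 to -0.07) in KO, and Mcl1, a survival factor, at -1.23 and -1.03, but with every cell thinned to 8000 UMIs the KO value of Mcl1 was 0.69 and in cells under the median depth 0.0062.

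Medians of the housekeeping lists stood close to 0, but many respiratory chain intervals left out 1. The 52 respiratory chain genes had medians of 0.23 in WT and 0.19 in KO. Their intervals lay above 1 for 32 and 24 genes, 15 of them in both labels, and below 1 for 3 and 5. The 51 cytosolic ribosomal protein genes had medians of 0.02 and -0.08, with 19 and 5 intervals above 1 and 18 and 21 below. Over all genes 22.3% and 21.8% of intervals lay above 1, 7.56% in both labels, and 26.1% and 17.9% below. Of 4 erythroid genes over the floor, Icam4 was the only one beyond 2-fold; Car2, carbonic anhydrase 2, stood at 0.37 and -0.12 and Blvrb, biliverdin reductase B, at 0.25 and 0.96. Car1 had at most 1 UMI in each of the compared groups, and no ratio is given.

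**Figure D4:**
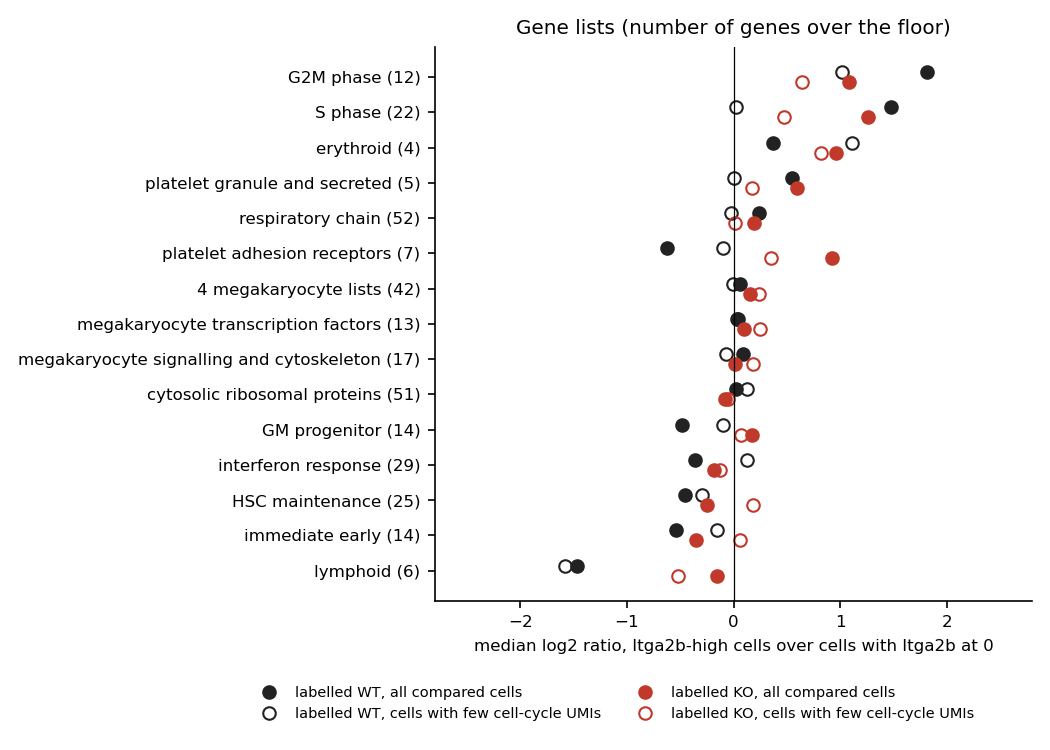
Median log2 ratio of Itga2b-high cells over cells with Itga2b at 0 (horizontal axis) for each gene list with at least 4 genes over the floor, labelled WT in black and KO in red. Filled circles are all compared cells and open circles cells with few cell-cycle UMIs, which were chosen by the S phase and G2M lists themselves. The cell-cycle lists lie farthest right when all cells are used, the lymphoid list farthest left in WT, and the combined megakaryocyte lists near 0.

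Markers of other cell types were summed in the same cells. Of 10 neutrophil markers 3 were in the table, and they summed to 127 CPM in Itga2b-high cells and 50.8 in cells at 0 in WT and to 58.8 and 36.2 in KO. The 3 of 11 macrophage markers summed to 5.77 and 19.0 CPM in WT and 10.5 and 41.4 in KO. The 8 of 13 stroma and endothelium markers summed to 84.6 and 87.3 CPM in WT and 100 and 176 in KO, and the 25 of 26 oocyte genes to 275 and 233 in WT and 110 and 126 in KO. Their part in the differences above was not tested.

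Because Itga2b level and cell-cycle transcripts went together in WT, the comparison was repeated in cells with no more than the median number of cell-cycle UMIs of their label, an alternative chosen after seeing the data. This left 13 Itga2b-high cells and 45 at 0 in WT and 26 and 18 in KO. Pf4 was then higher by 0.98 and 0.79, Gp9 by 0.73 and 0.92 on the log2 scale, while Mllt3 stood at -1.17 and -1.0 and Ifitm1 at -0.83 and -1.56. The median of the megakaryocyte lists was 0.00 in WT and 0.24 in KO. That of the S phase genes was 0.02 and 0.47, but UMIs of the S phase and G2M lists chose these cells. Values of those lists are therefore no separate result. The HSC maintenance median was -0.30 in WT and 0.18 in KO, so it turned sign in KO. The direction of these 4 genes was the same as in all cells, but other differences in WT were smaller: Cd9 stood at 0.05, Gata1 at 0.41 and Rap1b at 0.33. No intervals were computed for these ratios, and Gata1 had 5 UMIs in 2 of the 13 Itga2b-high cells. Of the 17 megakaryocyte genes with an interval above 1 in WT, 8 had less than 50% of their log2 ratio, and 3 of these had turned, Gfi1b (-2.38), Ptgs1 (-0.07) and Slc14a1 (-0.48). Of 12 in KO, 4 had less than 50%, none turned and 1 had no value. Among other genes, the direction turned for Clspn (-1.53) in KO. It also turned for Top2a (-2.53) and Mki67 (-1.53) in WT, but both belong to the G2M list that helped to choose the cells. Asf1b stood at -0.12 in KO, but KO cells at 0 had no Asf1b UMI, so a floor of 3 UMIs set that sign.

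Within the Itga2b-high cells, the same limit separated different levels. In WT, Pf4 stood at 1629 CPM in the 39 cells with more cell-cycle UMIs and 392.3 CPM in the 13 cells with few, and in KO at 709.7 and 696 CPM in 31 and 26 cells. The 5 WT cells with most Pf4 held 829 of 1373 UMIs and were all among the 39. The WT sums of Pf4 therefore do not give the level of most cells. Gata1 stood at 80.8 and 19.2 CPM in WT, but at 21.0 and 34.6 in KO. Ifitm1 stood at 644 and 1708 CPM in WT and Ly6a at 52.6 and 415, against 115 and 192 for Ly6a in KO. Itga2b itself stood at 305 and 231 CPM in WT and 379 and 483 in KO. Gp5 stood at 101 and 57.7 CPM in WT and 62.9 and 3.85 in KO, and Mllt3 at 55.1 and 115 in WT and 95.2 and 250 in KO. By summed UMIs, Pf4 and Ly6a were farther apart in WT, and Gp5 and Mllt3 in KO.

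The Itga2b-high cells of the labels were then compared with each other. Of 5572 genes, 582 (10.4%) were 2-fold or more higher in KO and 263 (4.72%) lower, and in cells at 0 457 (8.2%) and 576 (10.3%). GM progenitor genes were higher in KO among Itga2b-high cells: 13 of 14 were higher beyond counting error, with a median log2 ratio of 1.62. In cells at 0, 6 of 14 were higher and 3 lower beyond counting error, with a median of 0.16. Over all genes, the interval of KO over WT lay above 1 for 26.4% and below 1 for 21.2% in Itga2b-high cells, and for 20.5% and 21.7% in cells at 0. Fcer1g, a signalling chain of Fc receptors, was at 1.78 (1.47 to 2.11) in Itga2b-high cells and 0.76 (0.46 to 1.06) in cells at 0, Prtn3, a neutrophil protease, at 2.22 (1.82 to 2.65) and 1.47 (1.18 to 1.76), and Irf8 at 2.31 (1.27 to 3.52) and -0.30 (-0.98 to 0.34). Fcer1g and Prtn3 were picked after their values were seen. Lymphoid genes stood at a median of 1.42 in Itga2b-high cells and 0.03 in cells at 0, Ltb among them at 1.80 and -0.09. No gene of either list was 2-fold or more lower in Itga2b-high cells than in cells at 0 in both labels.

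**Figure D5:**
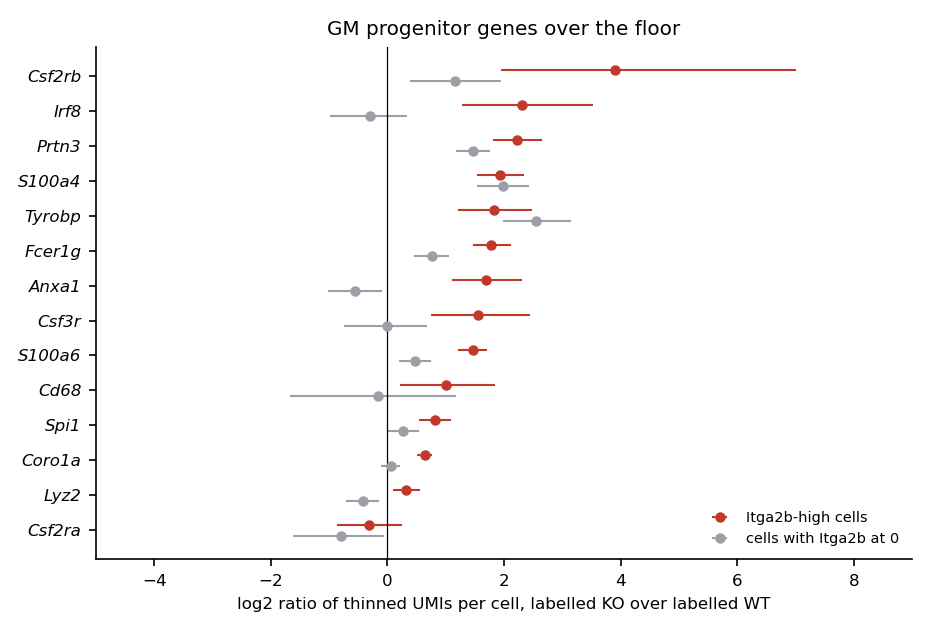
Log2 ratio of thinned UMIs per cell, labelled KO over labelled WT (horizontal axis), for the 14 GM progenitor genes over the floor, in Itga2b-high cells (red) and in cells with Itga2b at 0 (grey), with exact 95% counting intervals. The red points of 13 genes lie to the right of 0, and 8 grey points do; the labels are 1 pool each.

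G2M genes went the other way. None of 12 was higher in Itga2b-high cells labelled KO, and 11 were lower beyond counting error, where the share over all genes was 21.2%. The median was -1.14, against 0.29 in cells at 0. Among KO cells at 0, 1 cell held 398 UMIs of the listed G2M genes, where the median of its group was 4. No contrast between the Itga2b groups is therefore read from the 0.29. Ccnb2, cyclin B2, was at -2.0 (-2.43 to -1.59) and Mki67 at -1.28 (-1.63 to -0.94). Of 22 S phase genes 12 were lower beyond counting error in Itga2b-high cells, with a median of -0.48, and 6 in cells at 0, with a median of -0.46. Platelet genes were divided: Pf4 was lower in Itga2b-high cells labelled KO at -0.91 (-1.04 to -0.78) and higher in KO cells at 0 at 0.87 (0.59 to 1.14), Gp5 was lower at -1.33 (-1.90 to -0.79) and Gp9 higher at 0.48 (0.25 to 0.71). Over the 42 megakaryocyte genes the median was 0.39 in Itga2b-high cells, with 21 higher and 12 lower beyond counting error. In cells at 0 it was 0.32, with 19 higher and 4 lower, so a shift towards KO was not particular to Itga2b-high cells.

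The 5 genes highest in KO among Itga2b-high cells were Mn1, Wfdc17, Milr1, Cdkn1a and Clnk. Cdkn1a, the inhibitor p21, had 4 UMIs in WT and 72 in KO, 4.04 (2.62 to 5.95) on the log2 scale, against 0.99 (0.24 to 1.73) in cells at 0. Wfdc17, a secreted protein of myeloid cells, had 5 and 159 UMIs, 4.86 (3.61 to 6.50), and Clnk, an adaptor of immune receptors, 6 and 107. Mn1, a transcriptional coregulator, had 1 UMI in WT and 37 in KO, and Milr1, an inhibitory receptor of mast cells, 1 and 22. The 5 lowest were Mt1, Shisa8, Rcor3, Ubap1 and Gnl1. Mt1, the metal-binding protein metallothionein 1, had 167 UMIs in Itga2b-high cells labelled WT and 2 in those labelled KO, -6.52 (-9.57 to -4.64) on the log2 scale. Within the labels it went opposite ways, higher in Itga2b-high cells than in cells at 0 in WT at 2.45 (1.93 to 3.01) and lower in KO at -2.97 (-6.25 to -0.65).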

How the data were processed

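The file held 10720 genes in 586 cells as log2 values. Per the labels and the study's methods, the authors separated reads by cell barcode, aligned them to mm9, collapsed them by UMI, normalized the counts and deposited log2 of the normalized value plus 1, for genes with a mean count above 0.2; the aligner and the normalization method are not given in the sources used here. In each cell the log was undone and divided by the smallest step, and 100% of values were whole within 0.01, which gave UMI counts of 8038 to 496293 per cell. A count test was not used because column names give the genotype but neither library nor barcode, so each label was 1 pool, and barcodes shared between libraries could not be counted.

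Cells with at least 2000 genes and 20000 UMIs were thinned once to 20000 UMIs, without 69 deep cells (67 WT, 2 KO) above 1000 CPM of oocyte genes. UMIs were summed per group and compared as ratios of CPM, with exact Clopper-Pearson intervals for ratios and shares and exact Poisson intervals for levels. PCR and capture add error that these do not cover. A gene needed 0.5 thinned UMI per compared cell, 25 CPM, for counts over all genes. The analysis used Python 3.11.15, numpy 2.4.6, scipy 1.17.1, pandas 2.3.3 and matplotlib 3.10.9, and was checked on simulated counts.

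The members and gene lists were chosen with earlier results of these data known. Genes named were Med23, Itga2b, the megakaryocyte lists, the 10 genes each way with the largest difference common to both labels and the 5 each way between labels in Itga2b-high cells, all with a direction that held without the top cell, and, of other lists, the 2 members with the largest and the 2 with the smallest mean. A few genes that this rule names are not reported here. Others are marked where they appear, and Ube2c and the genes shown by cell-cycle UMIs were singled out after their values were seen. Motifs were searched in RefSeq promoters of GRCm38.p6, which is not the build of the files, so gene symbols alone link them.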

Additional observations from a re-analysis of the deposited data

Results flagged for a closer look

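In 9 named genes, the counting interval lay on opposite sides of 1 in the labels for Itga2b-high cells over cells with Itga2b at 0. With 1 pool per label, the difference between the labels was not tested. Log2 ratios for WT and then KO are given.

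Mt1, metallothionein 1, stood at 2.45 and -2.97. In the megakaryocyte lists, 5 genes went opposite ways in the labels: Selp, P-selectin, at -1.09 and 0.99, Meis1, a homeodomain factor, at -0.37 and 0.31, Tln1, talin 1, at 0.28 and -0.27, Alox5ap, an activator of leukotriene synthesis, at -0.30 and 0.43, and Fhl1, a LIM domain protein, at 1.11 and -1.04. Ccnb2, cyclin B2, stood at 1.66 and -0.88 and Cenpa, the centromeric histone, at 1.54 and -1.18; leaving out the cell with most UMIs in each group gave 4.43 and 1.09 in KO. Il2rg, a cytokine receptor chain, stood at -1.28 and 0.63. The directions of Fhl1 and Selp turned under other processing.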

How the results depend on the processing

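Of 3222 values of 133 genes recomputed under the alternatives, 2601 moved by less than the counting interval, 586 moved further and 35, all with a main difference of 2-fold or more, changed direction; smaller differences that turned are among the others. No paired analysis was possible because cells are named by genotype alone, with no library or batch, so the batch block and the left-out batches were not run. Cells with few cell-cycle UMIs, centred authors' values and members ranked by Itga2b per total UMIs were added after seeing the data; that ranking kept 70 of 76 members in WT and 62 of 70 in KO. Apart from the cell numbers and gene floors given, the cause of a change was not tested.

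With the authors' normalized values, 2-fold higher genes numbered 1763 in WT and 1178 in KO and lower genes 101 and 109, KO over WT in Itga2b-high cells gave 254 higher and 730 lower, and the megakaryocyte median was 0.93 in WT. Without the top cell of each gene, KO had 1026 higher. Cells at or above the median depth gave 727 higher in WT, 1212 higher and 758 lower in KO, and 453 lower for KO over WT; cells under it gave 608 lower in KO, and 918 higher and 599 lower for KO over WT. Few cell-cycle UMIs gave 1041 lower in WT, 912 higher and 646 lower in KO, and 1151 higher and 701 lower for KO over WT, on fewer cells. A floor of 1 UMI gave 143 higher and 245 lower in WT and 234 and 133 in KO, and no floor 1312 and 1833 and 1730 and 1354, as fewer or more genes were counted.

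Among the 133 genes recomputed, differences of 2-fold or more turned as follows. Cells with oocyte transcripts kept: Serpine2 -0.35 (WT). Without thinning: Fhl1 -0.29 (WT), Jam2 -0.28 (KO). Authors' values: Fhl1 0.42 and Cenpa 0.27 (KO), Selp 0.88 and 1300002E11Rik 0.028 (WT); centred, Selp 0.15 (WT). Without the top cell: Cenpa 1.09 (KO), and Ube2c, outside these 133 genes, turned in KO as given above. Every cell at 8000 UMIs: Fhl1 0.067, Tubb2a 0.093 and Mcl1 0.69 (KO), Selp 0.049 and Rin3 0.17 (WT). Deeper cells: Jam2 -0.26, F2rl2 -0.26, Rab27b -0.29, Icam4 -0.46, Itpripl1 1.78 and Adck2 0.49 (KO), Fam168a 0.046 (WT). Shallower cells: Mcl1 0.0062 and Gm10033 0.10 (KO), Vwf -0.98 and Dhx58 -0.33 (WT). Few cell-cycle UMIs: Serpine2 -0.21, Cenpa -0.53, Vwf -0.083, Slc14a1 -0.48, Top2a -2.53 and Mki67 -1.53 (WT), Gm10033 1.31 and Clspn -1.53 (KO). Asf1b, counted with these at -0.12 (KO), had no UMI in KO cells at 0, so a floor of 3 UMIs set its sign. Ranked by share: Mki67 -0.068 (KO).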

Other observations

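Interferon and immediate early genes stood higher in cells labelled KO than in those labelled WT whatever the Itga2b group. Of 29 interferon-response genes over the floor, 23 were higher in KO in Itga2b-high cells, 16 of them beyond counting error, with a median log2 ratio of 0.55, and in cells at 0 the numbers were 23, 16 and 0.45; over all genes 26.4% and 20.5% were higher beyond counting error. Of 14 immediate early genes, 11 were higher in KO in Itga2b-high cells and 11 in cells at 0, with medians of 1.70 and 1.01. In each group 10 were higher beyond counting error, and whether they are the same genes was not counted. Cytosolic ribosomal protein genes were lower in KO beyond counting error in 45 of 51 in Itga2b-high cells and 27 of 51 in cells at 0, with medians of -0.22 and -0.10, where the shares over all genes were 21.2% and 21.7%. Each label is 1 pool, so these are differences between pools.

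Of 4 erythroid genes over the floor, 3 had a ratio of KO to WT. These 3 were lower in KO beyond counting error in Itga2b-high cells, median -0.64, and in cells at 0, median -1.14. Over all genes the shares below 1 were 21.2% and 21.7%, and 3 genes do not stand for the lineage.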
